A study of Mus musculus with 4 samples.

Results

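The 10 genes Trp53, Trp63, Trp73, Chek1, Chek2, Atm, Atr, Bbc3, Pmaip1 and Bax were followed in ATAC-seq peak lists from mouse female germ cells. They were chosen by name as DNA damage checkpoint and death genes of oocytes, and are 10 of the 21887 protein-coding genes placed on the autosomes, X and Y. ATAC-seq uses a transposase that inserts sequencing adapters into open DNA, so a called peak marks a stretch of accessible chromatin. There were 4 libraries of 50-bp reads from germ cells of C57BL/6 embryos at embryonic day 15.5, sorted on the fluorescence of an Oct4-EGFP reporter that both groups carry. The control group had 2 libraries (Control 1 and Control 2), and the group with a conditional knockout of Snf5 had 2 (Snf5 CKO 1 and Snf5 CKO 2). Smarcb1 encodes Snf5, which belongs to the core of SWI/SNF, a complex that moves nucleosomes. The sources used here give neither the Cre driver, the alleles of the controls, nor whether embryos were pooled or replicates were separate animals. The p-values therefore concern only these libraries, and the spread between replicates may be technical.

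Meiotic prophase begins with DNA breaks that the cell makes itself and then repairs. Unrepaired breaks are sensed by the kinases ATM and ATR, which activate the kinases CHK2 and CHK1. In oocytes CHK2 is known to pass the signal to p53 and to p63, the p53 relative that guards the resting oocyte pool, and these factors switch on BH3-only death genes such as Bbc3 (PUMA) and Pmaip1 (NOXA), which act through BAX. Trp63 and Trp73 each have an upstream start for the transactivating (TA) form and an internal start for the shorter deltaN form.

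The lists held 28625 to 45422 peaks over 16.9 to 27.4 Mb, with Snf5 CKO 2 the shortest. Read depth is unknown, so the absence of a peak does not show that a start was closed. Smarcb1 had peaks of 929 and 1139 bp at its start in the controls and had no start peak in the knockout lists. All 8 germ cell markers checked, Ddx4 and Dazl among them, had a start peak in all 4 libraries. Of markers of other cells, 5 of 6 for ovarian supporting cells, 2 of 6 for stroma and mesenchyme and 2 of 7 for endothelium and blood did so too. Amhr2, Nr2f2, Pdgfra, Cdh5, Ptprc, Gata1 and Hbb-bs were at 0 in every library within 1 kb of the annotated 5′ end (both gene ends for Cdh5). Other RefSeq starts of these markers were not checked, so they may have peaks there. Summed start peak length over the stroma list was 2208 and 2821 bp in the controls and 1059 and 964 bp in Snf5 CKO. Over the supporting cell list it was 8699 and 7572 bp against 4977 and 5201 bp, over the endothelium and blood list 2946 and 2444 bp against 1654 and 1840 bp, and over the germ cell list 9206 and 9164 bp against 7446 and 6105 bp. The part of other cells in the results below was not tested.

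Promoter sequences are shown for the genes whose starts the results turn on. Each is the 210 bases before a RefSeq start (GRCm38.p6, the assembly of mm10), 5′ to 3′ on the strand of the gene. Both starts of Trp73 are given because one had a peak in every library and the other in none. Chek2 is given for its high-ranking peak, Atm for the longest control start peaks among the members, and Bax as the death effector. Capitals mark matches on either strand to the box CCAAT, the GC box GGGCGG, the box TATAA, the E-box motif CACGTG, the motif of the factor NRF1 (GCGCA with any base between it and a following GCGC) or the p53 decamer, the unit of p53 binding elements, and overlapping matches run together.
Trp73 upstream start, chr4:154139876-154140085, minus strand: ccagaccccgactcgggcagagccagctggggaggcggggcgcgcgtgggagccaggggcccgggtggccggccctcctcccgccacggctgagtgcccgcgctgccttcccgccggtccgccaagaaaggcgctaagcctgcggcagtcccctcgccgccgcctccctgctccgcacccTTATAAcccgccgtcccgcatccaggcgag
Trp73 internal start, chr4:154097174-154097383, minus strand: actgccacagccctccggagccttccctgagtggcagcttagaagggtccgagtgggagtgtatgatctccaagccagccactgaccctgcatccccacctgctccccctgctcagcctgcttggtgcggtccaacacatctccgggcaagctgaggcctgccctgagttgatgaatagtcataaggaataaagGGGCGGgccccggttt
Chek2, chr5:110839773-110839982, plus strand: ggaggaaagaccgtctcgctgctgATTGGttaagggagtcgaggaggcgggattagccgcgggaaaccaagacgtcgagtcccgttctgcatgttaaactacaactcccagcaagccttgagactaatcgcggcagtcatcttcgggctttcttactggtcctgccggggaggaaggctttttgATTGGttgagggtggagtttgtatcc
Atm, chr9:53536672-53536881, minus strand: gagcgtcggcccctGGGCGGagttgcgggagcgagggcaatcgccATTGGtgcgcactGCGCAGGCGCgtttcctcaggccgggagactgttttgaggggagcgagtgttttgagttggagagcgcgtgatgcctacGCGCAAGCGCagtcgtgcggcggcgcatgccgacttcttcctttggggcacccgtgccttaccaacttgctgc
Bax, chr7:45466899-45467108, minus strand: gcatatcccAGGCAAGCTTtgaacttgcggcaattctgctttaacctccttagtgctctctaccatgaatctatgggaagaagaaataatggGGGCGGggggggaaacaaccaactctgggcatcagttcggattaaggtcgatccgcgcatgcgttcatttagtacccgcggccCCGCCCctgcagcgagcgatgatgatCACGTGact

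The Trp73 starts differ in base composition. The upstream one holds 25 CpG dinucleotides and a TATAA match at −29, counted from the base before the start as −1, and the internal one 6 CpG and a GGGCGG, where the median over 21263 RefSeq starts of protein-coding genes is 8 CpG. Chek2 has CCAAT boxes (read on the other strand as ATTGG) at −186 and −26. Atm holds the NRF1 motif at −152 and −73, a motif in 4.91% of all these promoters. Bax has a p53 decamer at −201 and a CACGTG at −9, found in 5.17% and 6.00% of promoters. Before the Trp53 start, whose sequence is not shown, a p53 decamer lies at −75, and the Bbc3 starts have none. Matches to CCAAT are in 32.0% of promoters, those to GGGCGG in 41.2% and those to TATAA in 17.3%. A match describes the letters and does not show binding.

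Most checkpoint genes had an open start in both genotypes. Kept means that each of the 4 lists held a peak reaching at least 1 bp into the window of 1 kb on either side of the annotated 5′ end. Lost means that both control lists did so and neither Snf5 CKO list, and gained means the reverse. For Trp63 and Pmaip1, whose strand is not in the promoter table used here, both gene ends were treated alike. Of the 10 genes, 8 were kept, against 53.7% of all protein-coding genes. None was lost (background 4.81% of genes with a start peak in both controls) and none gained (background 0.482% of genes with none in the controls). Trp63 had no peak in any library (background 35.8%), and Bbc3 had one in 3 libraries by this window.

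At all 8 kept genes the start peaks were shorter in both Snf5 CKO libraries than in both controls, where 78.2% of the 11747 kept genes showed the same order. No kept member was longer in both Snf5 CKO libraries, an order found at 1.15% of kept genes. The median log2 ratio of mean Snf5 CKO over mean control length was −0.48 over the 8 genes and −0.40 over all kept genes. The order seen at the members was thus that of most open gene starts. With 2 libraries against 2, the exact two-sided permutation test gave p = 0.333 for each of the 8 genes, the smallest value it can give (also 0.333 after Benjamini-Hochberg adjustment over the 8), so no difference here can pass a threshold of significance. Peak length can move with sequencing depth, and each library's depth is unknown.

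**Figure D1:**
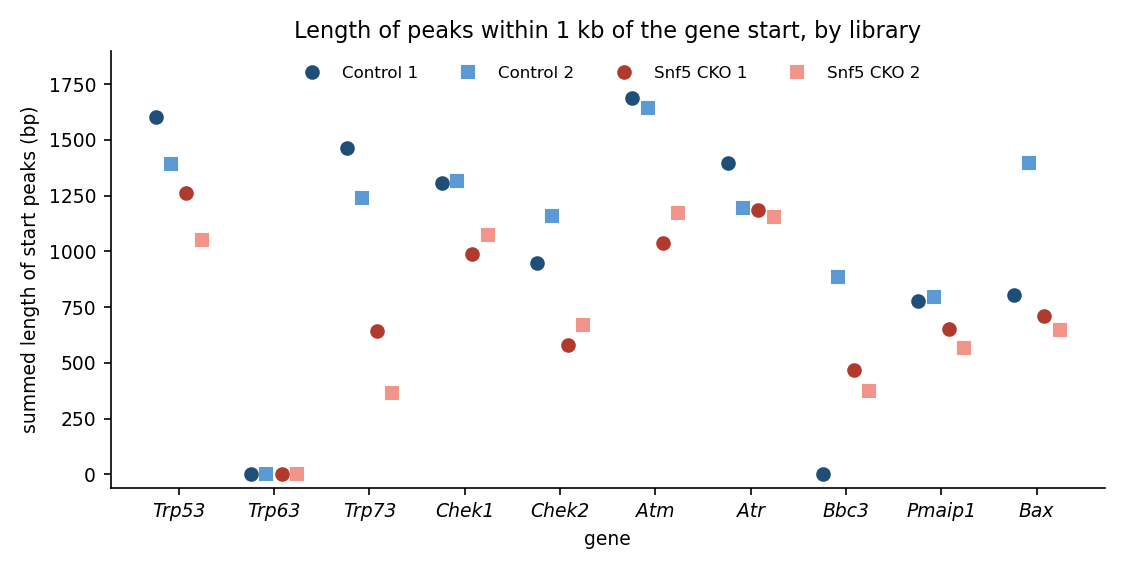
Summed length in bp of the peaks touching the 1 kb windows at the start of each gene (both gene ends for Trp63 and Pmaip1), with 1 point per library. At the 8 kept genes both Snf5 CKO points (red) lie below both control points (blue), Trp63 is at 0 throughout, and Bbc3 is at 0 in Control 1 alone.

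**Figure D2:**
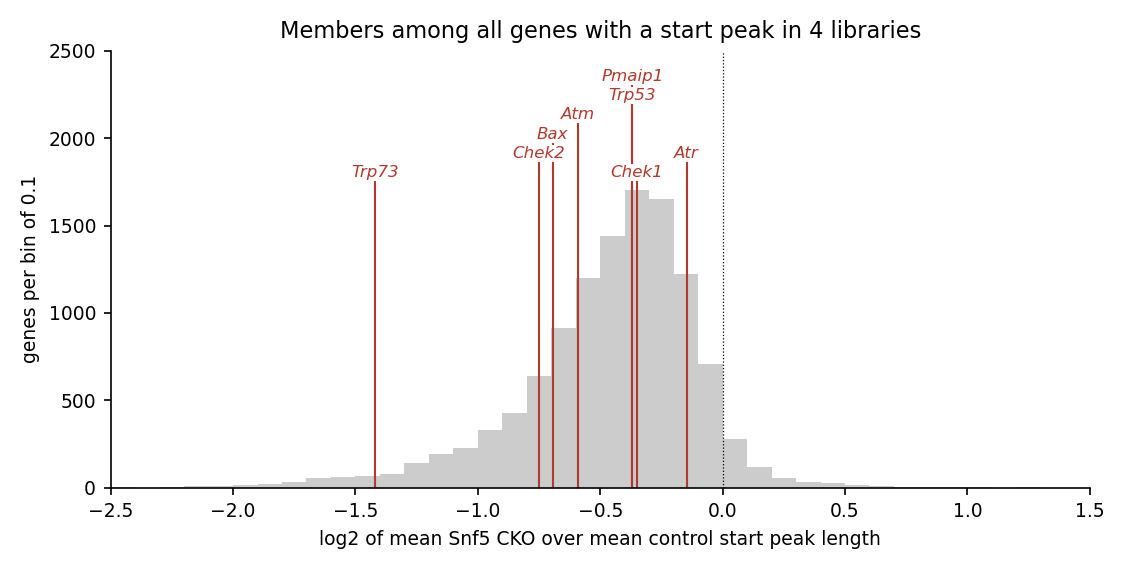
Distribution over 11747 kept genes of the log2 ratio of mean Snf5 CKO to mean control start peak length, in bins of 0.1, with the 8 kept members as red lines. The members run from −1.42 for Trp73 to −0.15 for Atr, on both sides of the median of −0.40.

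Among the kinases, Atm (chromosome 9, 53437122 to 53536828, minus strand), which senses double-strand breaks, had start peaks of 1686 and 1643 bp in the controls against 1039 and 1172 bp in the knockout libraries. The means were 1664.5 ± 30.4 bp and 1105.5 ± 94.0 bp (SD, n = 2 each), a log2 ratio of −0.59. The groups did not overlap, and the difference of −559 bp was larger than the spread within either group. The peak also covers the start of Npat, a histone gene regulator that lies head to head with Atm, so it cannot be assigned to one of them. Fold enrichment over local background, as the authors' peak caller gave it for each peak, was 4.69 and 4.41 for the controls and 6.22 and 6.09 for the knockouts. It describes a peak within its own list and was not compared across lists.

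Atr (chromosome 9, 95857597 to 95953217, plus strand), the kinase of single-stranded DNA at resected breaks, had the ratio nearest to 0 of the 8. Its start peaks measured 1395 and 1193 bp in the controls and 1184 and 1154 bp in Snf5 CKO, so that Control 2 and Snf5 CKO 1 differed by only a few bases. The log2 ratio was −0.15. It was −0.03 without Control 1, −0.25 without Control 2 and −1.17 when the 3′ window was counted too. When only bases inside the 1 kb window were counted the groups overlapped, with 1184 bp in both Control 2 and Snf5 CKO 1. Within 1 kb of its 3′ end Atr had peaks of 1377 and 1294 bp in the controls and none in Snf5 CKO. That peak belongs to a region over the start of Xrn1, an exonuclease gene, which was kept: its near edge lay 957 and 979 bp past the Atr end in the controls and 1121 and 1123 bp past it in Snf5 CKO.

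Chek1 (chromosome 9, 36708482 to 36726658, minus strand), the kinase activated by ATR, had very even values, 1307 and 1318 bp in the controls and 988 and 1072 bp in Snf5 CKO. The means were 1312.5 ± 7.78 and 1030 ± 59.4 bp (SD, n = 2 each), a log2 ratio of −0.35. This start peak was the one region found in the gene and 20 kb on either side. Chek2 (chromosome 5, 110839800 to 110874140, plus strand), the kinase that acts on p53 and p63 in oocytes, had 946 and 1157 bp in the controls and 581 and 668 bp in Snf5 CKO, a log2 ratio of −0.75. Its peak ranked high in each list by fold enrichment: among the top 1.68% and 4.42% of control peaks, with folds of 6.89 and 6.11, and the top 0.660% and 2.03% of knockout peaks, with folds of 9.42 and 8.19. The Chek2 peak also reaches an annotated end of the neighbouring gene Hscb, and whether this is its 5′ or 3′ end was not determined. The Atr peak covers a start of 1700065D16Rik, so neither peak can be assigned to a single gene. The shortest of the kinase start peaks stood highest within its list in all 4 libraries. How fold varies with peak length was not tested, so this rank may not be separate from the short length.

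The 3 p53 family genes had 3 different states. Trp53 (chromosome 11, 69580348 to 69591873, plus strand), which encodes p53, had 3 separate peaks touching the start window in every library. Their summed length was 1605 and 1392 bp in the controls and 1264 and 1053 bp in Snf5 CKO, with means of 1498.5 ± 151 and 1158.5 ± 149 bp (SD, n = 2 each) and a log2 ratio of −0.37. The outermost, at −1426 to −766 bp over a start of the antisense gene Wrap53, was the one of the 3 whose groups did not overlap: 657 and 609 bp against 431 and 390 bp. The region over the Trp53 start also holds a start of Wrap53, so it cannot be assigned to one of them. Its peak lengths overlapped between groups, with 391 and 294 bp in the controls and 297 and 202 bp in Snf5 CKO. So did those of the region that spans 734 to 1314 bp inside the gene, with 557, 489, 536 and 461 bp. The non-overlap of the sum ended with peaks of −log10 q 3 or more, with lists of the same length, windows of 500 bp or 2 kb, and when only bases inside the window were counted. The ratio was −0.25 without Snf5 CKO 2, −0.17 with lists of the same length and −0.20 with 2 kb windows.

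Trp73 (chromosome 4, 154056249 to 154139875, minus strand), which encodes p73, had the lowest ratio of the 8 kept genes. Its upstream (TA) start had peaks of 1465 and 1238 bp in the controls against 644 and 366 bp in the knockouts. The Control 2 value is the sum of separate peaks of 925 and 313 bp, the latter with a fold of 2.13 and a −log10 q of 1.40. The means of 1351.5 ± 161 and 505 ± 197 bp (SD, n = 2 each) gave a log2 ratio of −1.42, and 2.50% of all kept genes had a lower one. These were weak peaks. Their highest folds, 2.82 to 3.27, ranked within the top 89.0% to 92.0% of each list and so near its foot. The −log10 q was 6.12 and 4.85 in the controls and 2.39 at most in the knockouts. With peaks of −log10 q 3 or more Trp73 was called lost, and with lists of the same length it was no longer kept. At the internal (deltaN) start, 42702 bp into the gene, no library had a peak: the nearest lay 8123 and 8135 bp away in the controls and 8164 and 8223 bp away in Snf5 CKO.

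Trp63 (chromosome 16, 25683763 to 25892088), which encodes p63, had no peak anywhere in its 208326 bp or the 20 kb on either side, in any library. The internal start is not in the promoter table used here, but the absence covers it, since it lies within the gene. The nearest peaks were 117 to 118 kb below and 213 kb above the gene, so that 539 kb around it were empty in each of the 4 lists. Of all protein-coding genes 12.3% had no peak in the gene and its flanks. Of the 942 at least as long as Trp63 only 3 had none, or 0.318% (a comparison chosen after the values were seen). Trp63 itself is counted among the 942 and among the 3.

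The death genes Bax and Pmaip1 had a start peak in all 4 libraries. Bax (chromosome 7, 45461695 to 45466903, minus strand), whose protein permeabilises mitochondria, had start peaks of 803 and 1397 bp in the controls against 712 and 648 bp in the knockouts. The controls differed more from each other than Control 1 did from either knockout library: means were 1100 ± 420.0 and 680 ± 45.3 bp (SD, n = 2 each), and the difference of −420 bp was no larger than the control spread. The log2 ratio of −0.69 became −0.24 without Control 2 and −1.04 without Control 1. Pmaip1 (chromosome 18, 66458604 to 66465558), the gene of NOXA, had 778 and 797 bp against 651 and 569 bp at its lower-coordinate end, a log2 ratio of −0.37, and nothing else within 20 kb.

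Bbc3 (chromosome 7, 16308398 to 16318334, plus strand), the gene of PUMA, was the exception among the open genes. By the window at the gene's outermost 5′ end its peak measured 885 bp in Control 2, and the knockouts had 470 and 376 bp, while Control 1 had none. The Control 1 peak began 1004 bp inside the gene, just past the window. In the merged region that holds it, all 4 libraries had peaks, with 1003 and 885 bp covered in the controls and 924 and 719 bp in Snf5 CKO, so the groups overlapped. In the controls this was 1 unbroken peak. Each Snf5 CKO list had 2 peaks there with a gap between them, of which the outer ones, 470 and 376 bp long with folds of 3.40 and 3.73, cover the first of the 3 RefSeq starts of Bbc3 in the table, 1185 bp into the gene. Using every RefSeq start in the table, 9 of the 10 genes were kept, and Bbc3 was the one kept gene whose lengths overlapped.

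The difference in length lay on different sides of the start from gene to gene. Distances of the outermost peak edges from the gene start were measured for the 7 kept members with a known strand, a measure added after the values were seen. The upstream edge lay nearer to the start in both Snf5 CKO libraries than in both controls at 6 of 7 genes, against 55.5% of the 9435 such genes, and the downstream edge at 4 of 7, against 70.6%. Not all these edges can be assigned to the member. The upstream edge at Trp53 is that of the separate peak over a Wrap53 start, and the Atm and Atr peaks also cover starts of Npat and 1700065D16Rik. The Chek2 peak also reaches an annotated end of Hscb. Over all 9435 genes the median shift was −90 bp upstream and −155.5 bp downstream. Over the 7 members it was −244 bp upstream and −56 bp downstream. At Chek1 the groups differed on the upstream side alone: the upstream edge lay 732 and 753 bp out in the controls and 433 and 495 bp out in Snf5 CKO, while the downstream edge lay at 574, 564, 554 and 576 bp. At Trp73 both edges lay nearer: 1163 and 1112 bp against 502 and 306 bp upstream, and 301 and 357 bp against 141 and 59 bp downstream. At Chek2 and Atm, too, both edges lay nearer in the knockouts, and at Atr the downstream one.

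**Figure D3:**
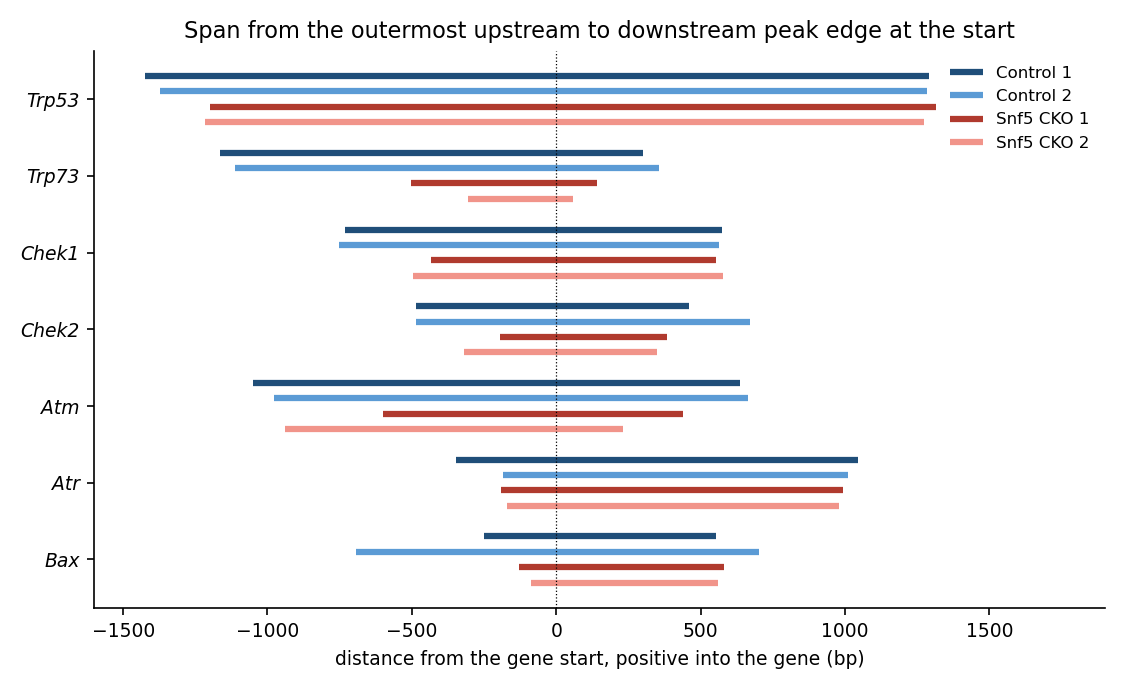
Span in bp from the outermost upstream to the outermost downstream edge of the peaks touching the start window, relative to the gene start (0), 1 bar per library; gaps between separate peaks are not drawn. Upstream edges of Chek1 lie at 732 and 753 bp in the controls (blue) and 433 and 495 bp in Snf5 CKO (red), while its downstream edges coincide.

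With the starts included, the 10 genes and 20 kb on either side held 46 merged regions, made by joining peaks of the 4 lists that overlapped. All 4 libraries had a peak in 24 of them, 52.2%, against 33.9% of the 48375 such regions around all protein-coding genes. Of the 46, 5 were lost (background 8.61%) and 2 were gained (background 4.11%). The other 15 had peaks in 1 to 3 libraries and were neither lost nor gained. Of the 24 kept regions 17 were shorter in both Snf5 CKO libraries and none was longer, against backgrounds of 67.3% and 4.02%. Of the 24, 13 lay outside the start windows. Among these 9 were shorter, none was longer and 4 overlapped in length, with no background computed for them. With the starts included, the members' shares of lost, gained and shorter regions were near those around all genes. These counts depend on single libraries: leaving out Control 1 gave 9 lost regions (19.3% of regions around all genes), Control 2 gave 9 lost (25.5%) and 4 gained (7.0%), Snf5 CKO 1 gave 8 lost (15.9%), and Snf5 CKO 2 gave 5 gained (21.1%). The share around all genes was higher in each of these cases too.

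The 5 lost regions lay at 3 genes (23.1% of all genes had at least 1), and 4 of them were inside a gene. In Chek2, a region 5610 to 6234 bp from the start (chr5:110845410-110846034) had peaks of 625 and 434 bp in the controls with folds of 6.07 and 5.33 and −log10 q of 14.2 and 7.32, and none in Snf5 CKO. It was the strongest of the 5. The other in Chek2 (chr5:110858839-110859231), 19 kb into the gene, was weak, with 200 and 346 bp and −log10 q of 1.90 and 2.93. In Trp73 a region was lost 58153 to 58730 bp from its start (chr4:154081145-154081722), with 424 and 552 bp and −log10 q of 4.12 and 3.12. Another lay nearer its 3′ end (chr4:154071029-154071819), with 200 and 740 bp and −log10 q of 2.81 and 1.54. Between these and the start, a region 33899 to 34579 bp into Trp73 was kept with overlapping lengths, 548 and 560 bp in the controls and 640 and 509 bp in Snf5 CKO. The last lost region was 20 kb upstream of Trp53 (chr11:69559604-69560711), with 824 and 740 bp in the controls. Whether these regions are exonic or intronic was not analysed here.

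Both gained regions lay downstream of a member (11.3% of all genes had at least 1 in their gene or flanks). Past the 3′ end of Bbc3, 17857 to 18197 bp from its start (chr7:16326255-16326595), the Snf5 CKO lists had peaks of 335 and 291 bp with folds of 4.75 and 4.57. Past the end of Chek2 (chr5:110886633-110887193), they had 561 and 470 bp with folds of 4.51 and 3.78 and −log10 q of 5.34 and 2.65. The Chek2 one lies inside Ttc28, the neighbour downstream. Around the Ttc28 start itself the regions differed in opposite directions. The one over that start covered 1298 and 1120 bp in the controls and 493 and 735 bp in Snf5 CKO. The next, 110877436 to 110878702 on chromosome 5, covered 0 and 628 bp in the controls and 1267 and 1028 bp in Snf5 CKO.

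Upstream of Bbc3 a region at −11567 to −11145 bp from the start also had its longest peaks in the knockout, with 0 and 234 bp in the controls and 416 and 378 bp in Snf5 CKO. Inside Bbc3, a region 5141 to 5920 bp from the start had 600 and 780 bp in the controls and 576 bp in Snf5 CKO 1, with no peak in Snf5 CKO 2. Farther along chromosome 11 from Trp53, a region over the higher-coordinate end of Atp1b2, a sodium pump subunit gene whose strand is not in the promoter table used here, covered 1320 and 1318 bp in the controls and 308 and 364 bp in Snf5 CKO. In Atm, a region 28311 to 28843 bp into the gene stayed open with 270 and 328 bp in the controls and 533 and 244 bp in Snf5 CKO. Atm also held 3 regions, and Atr 2, where 1 control alone had a peak.

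**Figure D4:**
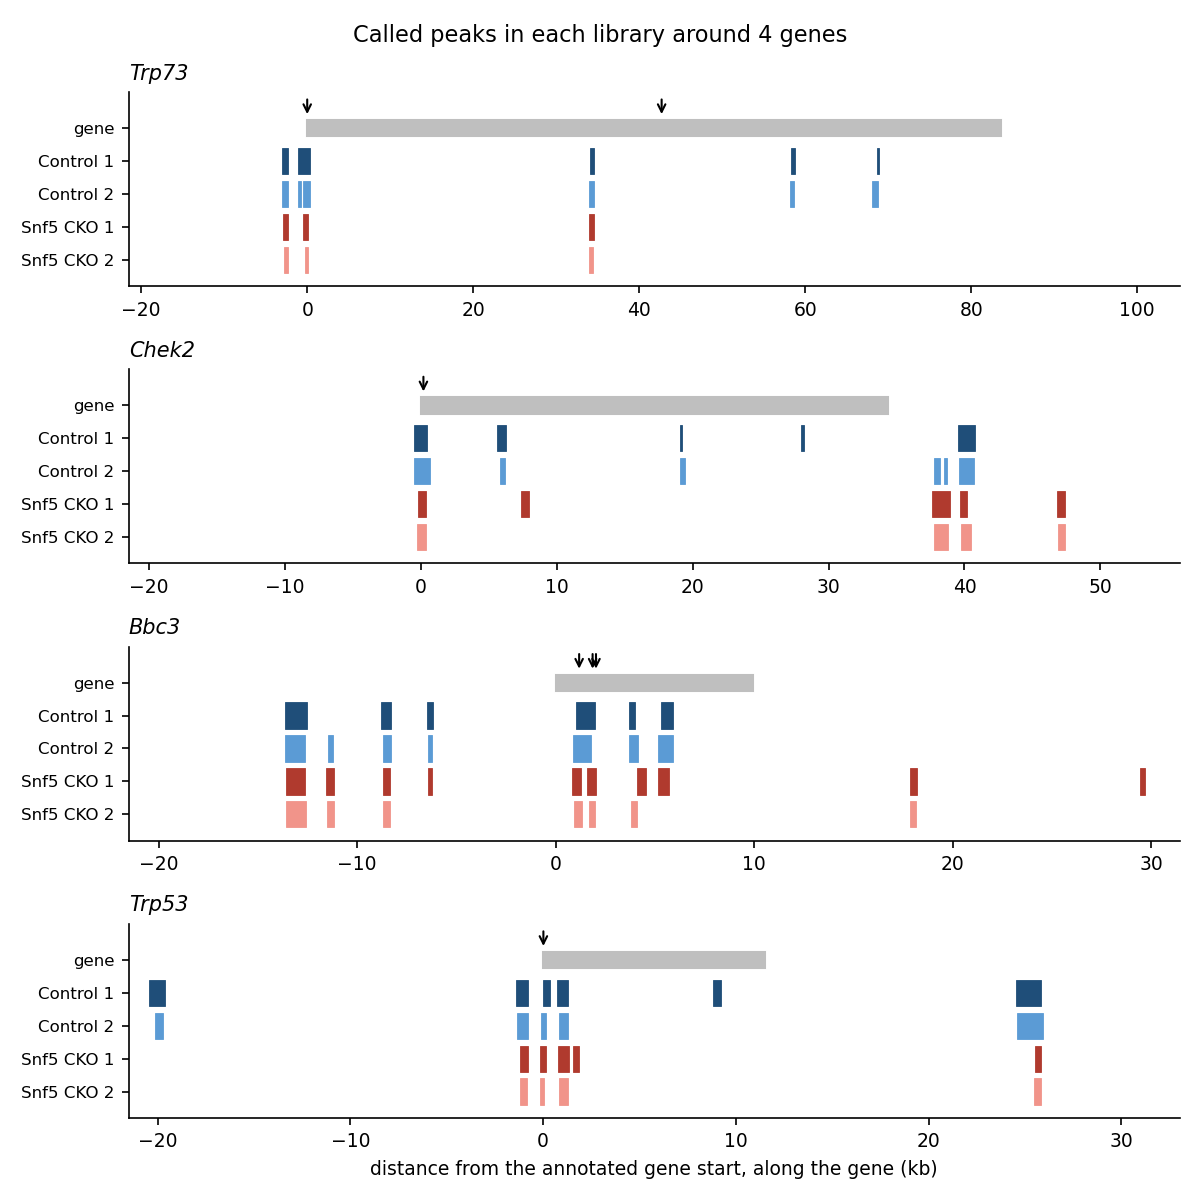
Peaks called in each library (coloured boxes, to scale) in Trp73, Chek2, Bbc3 and Trp53 and the 20 kb on either side, by distance in kb from the gene start along the gene; the grey bar is the gene and arrows are RefSeq starts. The control-only peaks in Trp73 and Chek2 and the peaks past the ends of Chek2 and Bbc3 that the Snf5 CKO lists alone hold are visible, and no box lies at the internal Trp73 start.

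The wider pathway was read from 78 other genes in 6 lists. Of these 64 were kept (background 53.7%), 1 was lost (background 4.81%) and none gained (background 0.482%). Another 6 had a start peak in some libraries only, and 7 in none. By library, 70 and 69 of the 78 had a start peak in the controls. In Snf5 CKO 1 it was 69, and 64 in Snf5 CKO 2, the shortest list. Of the 64 kept genes, 54 (84.4%) were shorter in both Snf5 CKO libraries and 1 was longer, against 78.2% and 1.15% of all kept genes. Their median log2 ratio was −0.40, equal to that of all kept genes at this precision. Casp8, the initiator caspase of death receptors, was the lost one, with peaks of 273 and 200 bp at its start (chr1:58795572-58795844) in the controls, folds of 4.68 and 4.30, and none in Snf5 CKO. These were short peaks, where the median widths of the control lists were 578 and 560 bp, with −log10 q of 5.38 and 4.27. The Casp8 call was not recomputed with other settings. The 7 genes without a peak at the outermost 5′ end, Trp53bp1, Cdkn1a, Mdm4, Usp7, Kat5, Bcl2l1 and Mcl1, all had peaks in all 4 libraries at another RefSeq start (checked after the values were seen).

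Of 17 kept damage sensors and mediators 15 were shorter in both Snf5 CKO libraries, against 78.2% of all kept genes here and in the lists that follow, with a median log2 ratio of −0.40, from −0.79 for H2ax, the histone phosphorylated at breaks, to −0.09 for the ubiquitin ligase gene Rnf168. Cell cycle targets of the checkpoint had 9 of 10 shorter and a median of −0.60, from −1.06 for the phosphatase gene Cdc25c to 0.14 for Ccng1, whose lengths of 697, 816, 893 and 774 bp overlapped between groups. The p53 family regulators had 8 of 9 shorter and a median of −0.40, from −0.83 for the phosphatase gene Ppm1d to −0.01 for Ppp1r13l, which encodes the p53 inhibitor iASPP. In the BCL2 family 5 of 7 were shorter, with a median of −0.51. Bcl2l11, the gene of the BH3-only protein BIM, had the lowest ratio of any pathway gene, −1.58, with 2267 and 1021 bp in the controls, which differed widely, and 521 and 578 bp in Snf5 CKO, and Bid had −0.13. Apoptosome and caspase genes had 7 of 8 shorter and a median of −0.43, from −0.94 for Casp6 to −0.11 for Casp9. Other p53 targets had 10 of 13 shorter and a median of −0.29, from −0.85 for the nuclease gene Aen to 0.71 for Eda2r, a receptor gene whose start peaks measured 509 and 756 bp in the controls and 1032 and 1044 bp in Snf5 CKO.

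**Figure D5:**
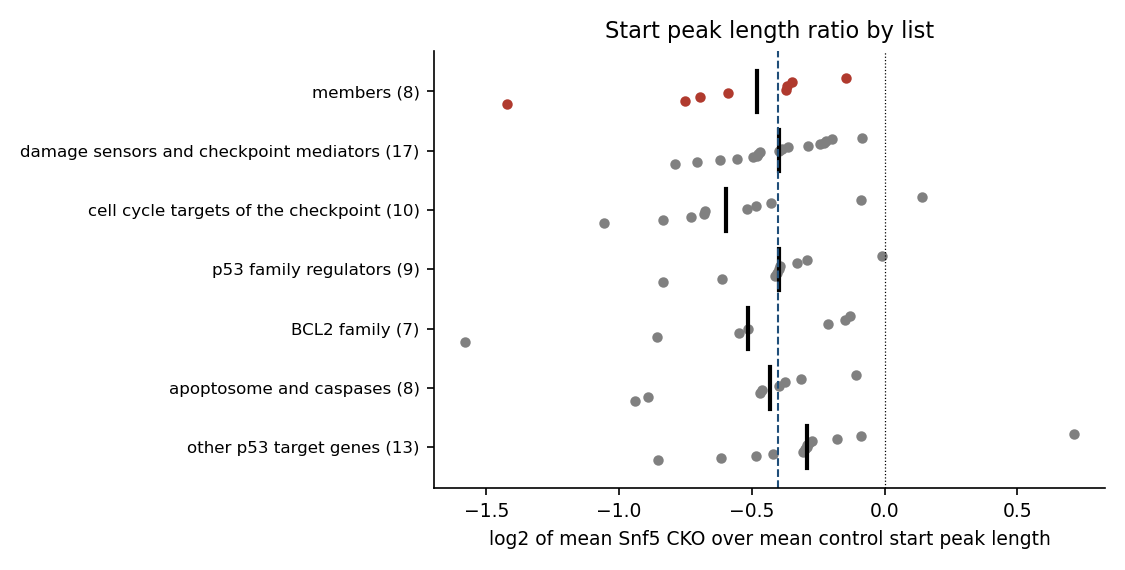
Log2 ratio of mean Snf5 CKO to mean control start peak length for each kept gene of the members (red) and of 6 pathway lists (grey), with the number of kept genes in brackets, list medians as black bars and the median of all kept genes (−0.40) as a dashed line. List medians run from −0.60 to −0.29, and Ccng1 and Eda2r alone lie to the right of 0.

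By bases covered within 1 kb of the start over the 4 libraries, the pathway gene most like Chek1 was Rrm2b, a ribonucleotide reductase subunit gene, with a summed absolute difference of 101 bp. Tigar was most like Pmaip1, at 150 bp, and Casp9 most like Trp53, at 210 bp. Likeness here rests on 4 values per gene that share the same libraries.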

How the data were processed

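Per the labels' protocols, sorted germ cells were tagmented and the DNA amplified with indexed primers; per the submitters' processing notes, the tools included MACS2 2.2.7.1, Bowtie2 2.4.2, Trim Galore 0.6.5, Picard 2.25.2 as well as SAMtools 1.10, and the build was mm10. For thresholds, duplicate handling and any shift of read ends the sources used here give nothing. The authors deposited 1 broad peak list per library, with a score, a fold enrichment ratio over local background, and −log10 p and −log10 q per peak. Depth is unknown. From these, presence and length of peaks were computed (Python 3.11.15, pandas 2.3.3, scipy 1.17.1) within 1 kb of gene starts and in genes plus 20 kb, with a 1 bp overlap. Gene ends come from RefSeq GRCm38.p6, and strands and starts from its promoter table, which held 17492 of 21887 genes and 8 of the 10 members. All 78 pathway genes matched, H2ax through a synonym. Calls were tested on simulated lists of isolated single peaks centred on gene starts, some halved or removed in Snf5 CKO. These lists did not copy split start peaks or the unequal lengths of the real lists. The members and lists were chosen with earlier results of these data known. All members are described. Of other pathway genes, those lost or gained and the extremes of each list are named, and the 3 closest likenesses of members with peaks. Genes at 0 in 4 libraries are alike by construction. Replicate numbers are not said to mark a shared litter or day.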

Additional observations from a re-analysis of the deposited data

How the results depend on the processing

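Calls and lengths at the members' starts were recomputed with stricter peaks, lists of equal length, other windows, 200 bp covered and each library left out, and, chosen after seeing the data, with both gene ends or every RefSeq start. Lost and gained regions were recomputed with stricter peaks, equal lists, other flanks, merging of near peaks and each library left out. Pathway lists, edges, 3′ ends, the empty span at Trp63 and likeness were not recomputed. The number of kept members stayed at 7 to 9 and of shorter members at 6 to 9. With peaks of −log10 q 3 or more 1 member, Trp73, was lost. Leaving out libraries gave 0 to 1 gained members, the 1 being Bbc3 without Control 2. The members' median log2 ratio was −0.37 with such peaks, with lists of the same length, with 2 kb windows or with every RefSeq start, −0.64 with both gene ends, and −0.57 to −0.41 without single libraries. All 94 ratios of single members kept their direction. Without single libraries lost regions numbered 5 to 9 (9.71% to 25.5% of regions around all genes) and gained regions 2 to 5 (5.72% to 21.1%), and 1 was gained with flanks of 10 kb (3.85%). The cause of these shifts was not tested. Under the replicate block, comparing within replicate numbers, 8 members were shorter in both pairs, as without it; across 11747 genes the replicate differences of the groups correlated at −0.01. Unknown depth limits every absence of a peak.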
